A study of Mus musculus with 4 samples.

Results

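Amino acid and peptide transporter genes of the solute carrier (SLC) families were followed in mouse intestinal epithelial cells given interleukin-17A (IL-17A), fibroblast growth factor 2 (FGF2) or both. The members are the genes whose symbols on the array begin with Slc1a, Slc3a, Slc6a, Slc7a, Slc15a, Slc36a, Slc38a or Slc43a, apart from Slc7a1, Slc7a2 and Slc7a11. This rule took 65 of 18193 genes. It also takes 3 symbols that end in os (Slc36a1os, Slc6a19os and Slc7a6os), which name opposite-strand genes and no transporter, so 62 members are SLC genes. The samples were 4 Affymetrix arrays, 1 per group, of primary cells grown from isolated intestinal crypts of mice whose strain, age and sex the labels do not give. The groups were cells left untreated, cells stimulated for 6 h with IL-17A at 50 ng/ml, cells stimulated for 6 h with FGF2 at 5 ng/ml, and cells stimulated with both for 6 h. All cells shared the fibronectin-coated plates and a medium with serum, insulin and antibiotics. How many mice lie behind an array is likewise not stated in the labels. No group was replicated, so nothing could be tested, and every fold below is a difference between arrays.

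Intestinal epithelium takes up digested protein as dipeptides and tripeptides and as free amino acids. Transporters of the brush border bring them in from the lumen, and others in the basolateral membrane pass them on to the blood or feed the cell. Several SLC7 transporters are pairs of a light chain that carries the amino acid and an SLC3 heavy chain that brings it to the membrane. Other members serve growth and amino acid sensing in most cells, and a further set clears or recycles neurotransmitters in nerve tissue.

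A gene was represented by its brightest probe set, and signals under a floor of 89.8, the median of all signals on the 4 arrays, were raised to it before a ratio was taken. A gene over the floor on at least 1 array is called measured here, and a fold with 1 side under the floor is a lower bound. Of the 65 members, 39 were measured, 33 of them on all 4 arrays, and 26 were not. Without the os symbols 38 of 62 were measured. A yardstick of error came from the interaction, the log2 effect of FGF2 with IL-17A minus that without, through its spread over all measured genes. The SD of a log2 ratio by this yardstick was 0.29 at a mean log2 signal under 8, 0.20 at 8 to 10, 0.13 at 10 to 12 and 0.09 over 12, and 15, 14, 8 and 2 measured members lay in these ranges. True interaction raises this yardstick and the floor lowers it for dim genes. Within members with several probe sets over the floor on every array (34 probe sets of 14 genes), log2 ratios of the same gene had an SD between 0.26 and 0.37 over the 5 comparisons.

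The labels call the cells epithelial, and general epithelial markers were bright on every array: their summed signal lay between 117369 and 125825, and no marker of the 6 (Epcam, Cdh1 and keratins) was 1.5-fold different in a comparison. Markers of mature enterocytes, the absorptive cells, had a summed signal of 26915 in untreated cells, 15318 with IL-17A, 21123 with FGF2 and 11290 with both, with 9 of 10 listed genes represented and Lct under the floor throughout. Fibroblast markers summed to 52918, 56386, 41016 and 43475 on the same arrays, smooth muscle markers to 33397, 34100, 24348 and 22513, and endothelial markers to 4695, 4555, 7052 and 7677, and none of the listed genes of these types was at 0. Bulk signals cannot tell fewer cells of a type from less RNA per cell, and such sums cannot be compared between cell types.

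The members as a group were centred on 0, and a few genes at the brush border and in other membranes made up the differences. The median log2 ratio of the 39 measured members was −0.02 for IL-17A against untreated, 0.00 for FGF2 and 0.01 for the combination, against −0.01, −0.01 and 0.00 over 12258 measured genes. In all, 12 members were at least 1.5-fold different in some comparison, (30.8%, beside 15.9% of all measured genes), and 6 of these at least 2-fold (15.4%, beside 3.51%). The other 27 were under 1.5-fold in each comparison with the floor applied, and for 5 of them some folds are lower bounds.

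With IL-17A alone, 1 measured member was at least 2-fold higher (2.56%, beside 0.375% of all measured genes) and 0 at least 2-fold lower (0.228%). At 1.5-fold the counts were 2 higher (5.13%, beside 1.44%) and 1 lower (2.56%, beside 1.95%). With FGF2 alone, 0 members were 2-fold higher (0.473% of all measured genes) and 0 lower (0.963%), and 3 were 1.5-fold higher (7.69%, beside 2.34%) and 3 lower (7.69%, beside 4.82%). With both factors, 1 member was 2-fold higher (2.56%, beside 0.906%) and 3 were 2-fold lower (7.69%, beside 1.73%). At 1.5-fold these were 4 higher (10.3%, beside 3.34%) and 6 lower (15.4%, beside 6.52%). With counts this small, 1 gene more or fewer moves a share by 2.56 percentage points, and counts of a single gene are given as that gene's values below. Dim genes vary more, and 29 of the 39 measured members had a mean log2 signal under 10. Of all 12258 measured genes, 3407 lay under 8 and 4491 at 8 to 10, so most genes were in this range too.

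**Figure D1:**
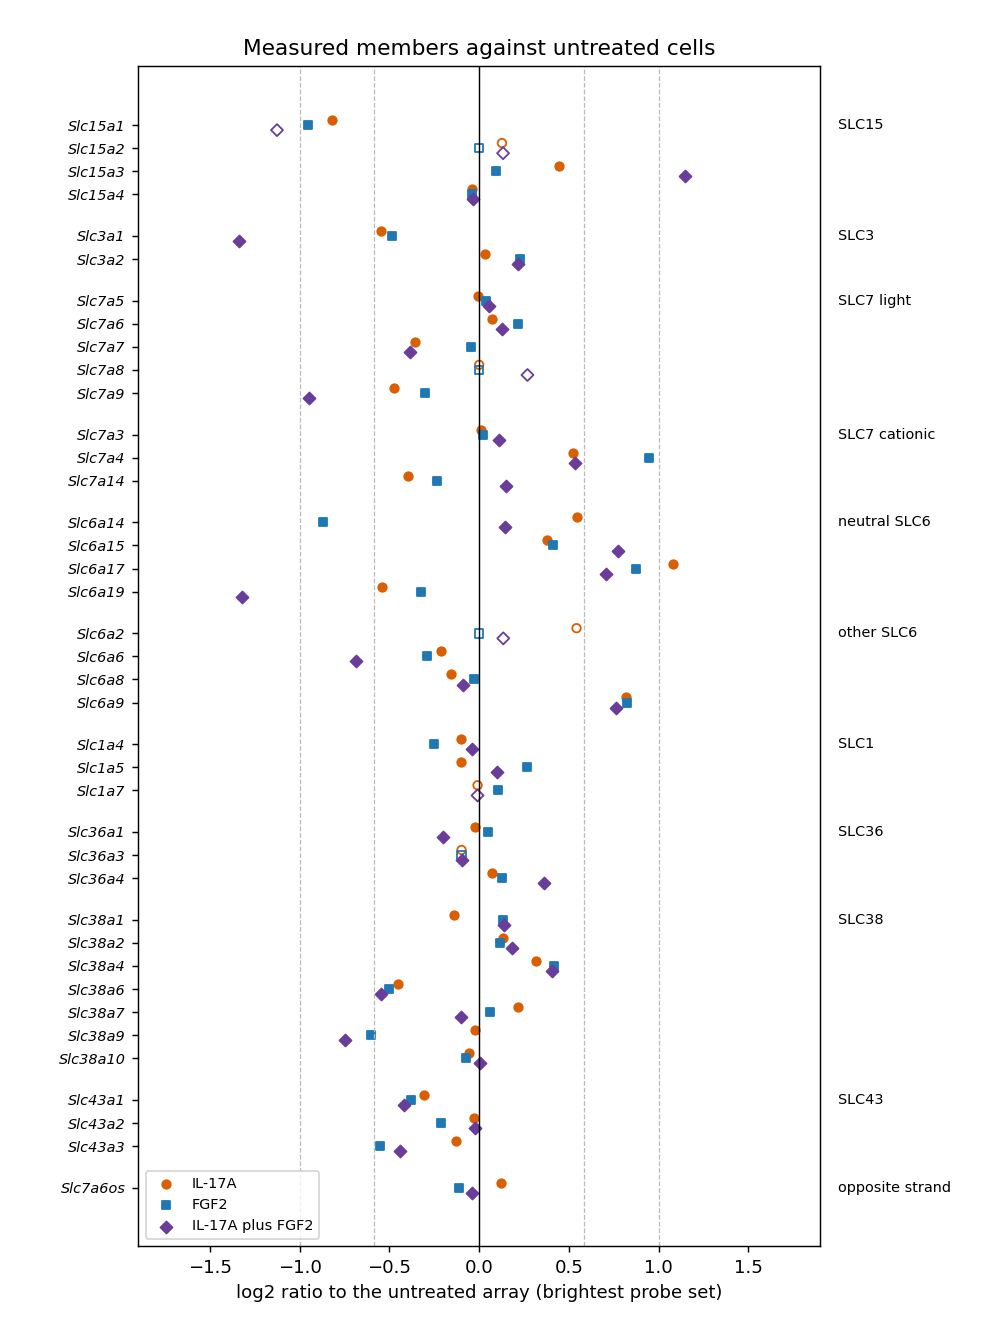
Log2 ratio to the untreated array for each of the 39 measured members, by transporter family, for IL-17A (circles), FGF2 (squares) and both (diamonds); open symbols have at least 1 side under the floor, and dashed lines mark 1.5-fold and 2-fold. Slc3a1, Slc6a19 and Slc15a1 lie beyond 2-fold on the low side with both factors, and Slc15a3 on the high side.

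Slc15a1, Slc3a1, Slc7a9 and Slc6a19, which work at the brush border, were lower on every stimulated array and lowest with both factors. They are grouped because of these values, and other apical carriers among the members, given below, are not in the group. Slc6a14 was higher with IL-17A, and Slc36a1 was at most 1.15-fold different from untreated. Slc1a1 was under the floor on every array, so it gives no ratio to compare. Slc15a1, the brush border carrier of dipeptides and tripeptides, had signals of 196 in untreated cells, 111 with IL-17A, 101 with FGF2 and 57.9 with both. The untreated array was the highest, and only the combined array was under the floor. The folds below untreated were 1.76 with IL-17A, 1.94 with FGF2 and at least 2.18 with both.

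Slc3a1 encodes the heavy chain, and Slc7a9 the light chain, of the brush border exchanger for cystine and cationic amino acids, whose loss causes cystinuria. Slc3a1 had signals of 297, 203, 212 and 118 in untreated, IL-17A, FGF2 and combined cells. Slc7a9 had 629, 453, 510 and 326 on the same arrays. Both chains thus had the same order of arrays, with untreated highest, the single factors between and the combination lowest. Slc3a1 was 1.46-fold lower with IL-17A, 1.40-fold with FGF2 and 2.53-fold with both, and Slc7a9 1.39-fold, 1.23-fold and 1.93-fold.

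Slc6a19, the sodium-coupled carrier of neutral amino acids whose loss causes Hartnup disorder, had signals of 588, 404, 469 and 235. It was 1.45-fold lower with IL-17A, 1.25-fold with FGF2 and 2.50-fold with both. A second probe set of Slc6a19 read 329, 199, 239 and 110, in the same order, with log2 ratios of −0.73, −0.46 and −1.59. Slc15a1, Slc3a1 and Slc7a9 have a single probe set each, so no other probe set bears on them.

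Over these 4 genes, grouped with their values known, the median log2 ratio was −0.54 with IL-17A, −0.41 with FGF2 and −1.22 with both. Enterocyte markers, a list that holds none of them, had medians of −0.90, −0.46 and −1.37. All 8 measured enterocyte markers were below untreated on each stimulated array, from −0.69 (Vil1, the microvillus protein villin) to −1.94 (Slc26a3, a chloride exchanger) with both factors. General epithelial markers had a median of 0.09 with both. Other lists were also below untreated with both factors: the median of goblet cell markers was −0.72 and 4 of 5 were 1.5-fold or more lower (Agr2, of the secretory pathway, by at least 6.11-fold), and the medians of smooth muscle and fibroblast markers were −1.01 and −0.51. The part of these cell types in the transporter values was not tested.

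**Figure D2:**
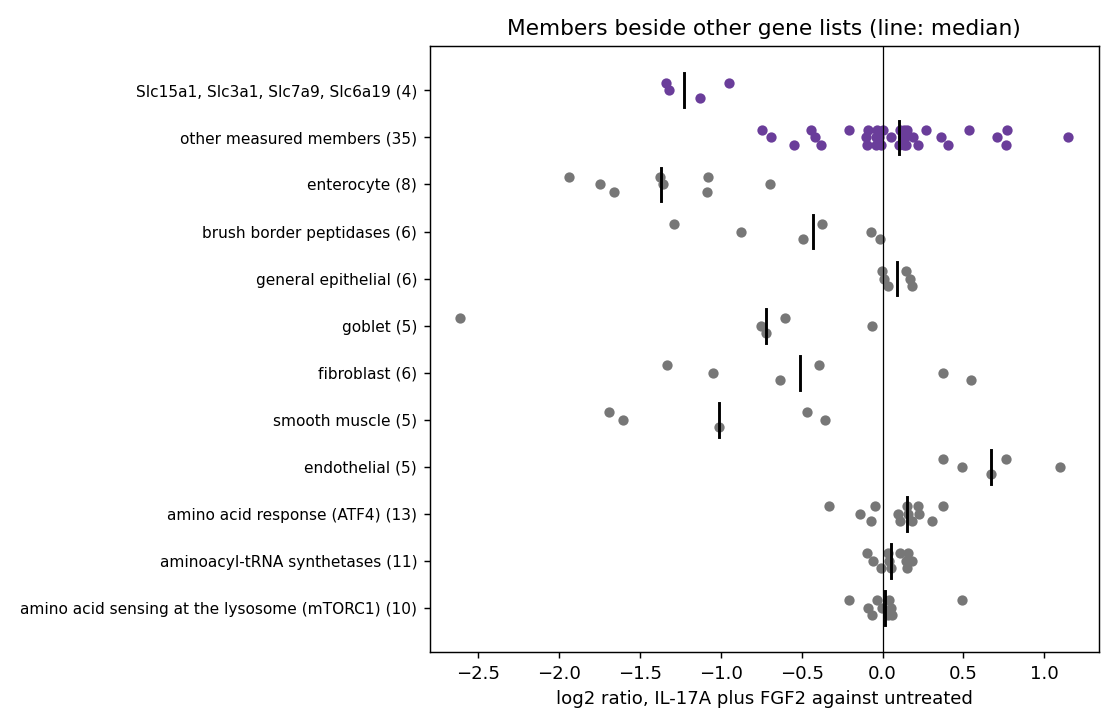
Log2 ratio of IL-17A plus FGF2 against untreated for Slc15a1, Slc3a1, Slc7a9 and Slc6a19, the 35 other measured members and other gene lists (number of measured genes in brackets); each point is a gene and each line a median. The 4 genes lie between −1.34 and −0.95 and were grouped for their low values, so their distance from the other members, which include apical Slc6a14 and Slc36a1, follows from that choice.

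The promoters of Slc3a1 and Slc7a9 are shown because the 2 chains of 1 transporter had the same order of arrays, and that of Slc6a14 because its signals ran differently, as given below. Each is the 250 bases before the start of the gene in RefSeq's GRCm38.p6 annotation, 5′ to 3′ on the strand of the gene, at chr17:85028097-85028346 (plus strand), chr7:35448842-35449091 (plus strand) and chrX:21714650-21714899 (plus strand), with the first of 2 starts taken for Slc7a9. Capitals mark matches to the motifs searched, and Slc7a9 has none. The promoters of Slc15a1 and Slc6a19, not shown, held none either. Slc6a19 had the same order of arrays as Slc3a1 and Slc7a9.
Slc3a1: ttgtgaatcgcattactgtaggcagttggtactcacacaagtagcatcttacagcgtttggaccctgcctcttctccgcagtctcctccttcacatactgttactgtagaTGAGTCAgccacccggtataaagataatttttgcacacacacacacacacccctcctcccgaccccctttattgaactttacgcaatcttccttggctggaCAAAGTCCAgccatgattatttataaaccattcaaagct
Slc7a9: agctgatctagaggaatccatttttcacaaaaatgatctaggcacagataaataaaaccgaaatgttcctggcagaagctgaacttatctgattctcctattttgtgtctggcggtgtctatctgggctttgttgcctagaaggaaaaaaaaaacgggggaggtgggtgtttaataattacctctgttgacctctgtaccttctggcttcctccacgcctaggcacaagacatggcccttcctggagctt
Slc6a14: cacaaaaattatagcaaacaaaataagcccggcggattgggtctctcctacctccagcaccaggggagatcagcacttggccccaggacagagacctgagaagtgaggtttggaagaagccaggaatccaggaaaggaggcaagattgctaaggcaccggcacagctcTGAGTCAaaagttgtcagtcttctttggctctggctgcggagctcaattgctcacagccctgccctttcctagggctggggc

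Motifs were searched on both strands of the 250 bases upstream in 32851 promoters, 68 of them of 48 members that had an entry. TGANTCA, the AP-1 site of Fos and Jun proteins, was in 13.2% of the members' promoters and 6.75% of all. It lies with its first base 140 bases before the start in Slc3a1 and 82 before it in Slc6a14. CAAAGTCCA, a form of the site of HNF4, a nuclear receptor of absorptive epithelium, was looked for only after these sequences had been seen. It was in 0.384% of all promoters and in 1 member, Slc3a1, 39 bases before the start. TGATGNAA, the amino acid response element bound by ATF4, was in 4.41% of the members' promoters and 3.45% of all, with Slc7a7 the measured member among them. The NF-kB motif was in 11.8% and 4.11%, and the HNF1 motif in 0 and 0.371%. The NF-kB matches came from 4 genes, Slc6a12, Slc6a13, Slc7a10 and Slc7a7, of which Slc7a7 alone was measured. Some genes have several overlapping windows, and a match is no evidence of binding.

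Slc6a14, which takes up neutral and cationic amino acids across the apical membrane, differed in opposite directions with the 2 factors. Its signals were 2530 in untreated cells, 3689 with IL-17A, 1385 with FGF2 and 2792 with both. The IL-17A array was highest and the FGF2 array lowest, and the combination lay near untreated. Slc6a14 was 1.46-fold higher with IL-17A and 1.83-fold lower with FGF2, and with both it was 1.10-fold above untreated, 1.32-fold below IL-17A and 2.02-fold above FGF2. Its other probe set read 1246, 2026, 1127 and 1403, so the IL-17A differences kept their direction there (log2 ratios of 0.70 and 0.32). The FGF2 difference without IL-17A was −0.14 in that probe set against −0.87 in the brighter.

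Slc15a3 encodes a lysosomal carrier of peptides and histidine found in macrophages and other immune cells. Its signals were 221, 301, 236 and 490, and the combined array stood alone. Slc15a3 was 1.36-fold above untreated with IL-17A, 1.07-fold with FGF2 and 2.21-fold with both, and the combination was 1.63-fold over IL-17A and 2.07-fold over FGF2. Its interaction was 0.61, within the 99th percentile of 0.88 for genes of its brightness. The macrophage and leukocyte list has 7 symbols for 6 genes, since Emr1 is an older symbol of Adgre1. All 6 genes were represented and none was at 0, with a median log2 ratio of −0.12 for the combination. Their summed signal of 3832, 4032, 5229 and 5495 took its increase from Cd14 (862, 1318, 2640 and 3081), and without Cd14 the sum was 2969, 2714, 2589 and 2415. Their part in the Slc15a3 values was not tested. The related Slc15a4 was level, at 561, 545, 546 and 547. Slc15a2, the peptide carrier of kidney and brain, was just over the floor on 2 arrays (98.0 with IL-17A and 98.5 with both), and Slc15a5 was under it throughout.

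**Figure D3:**
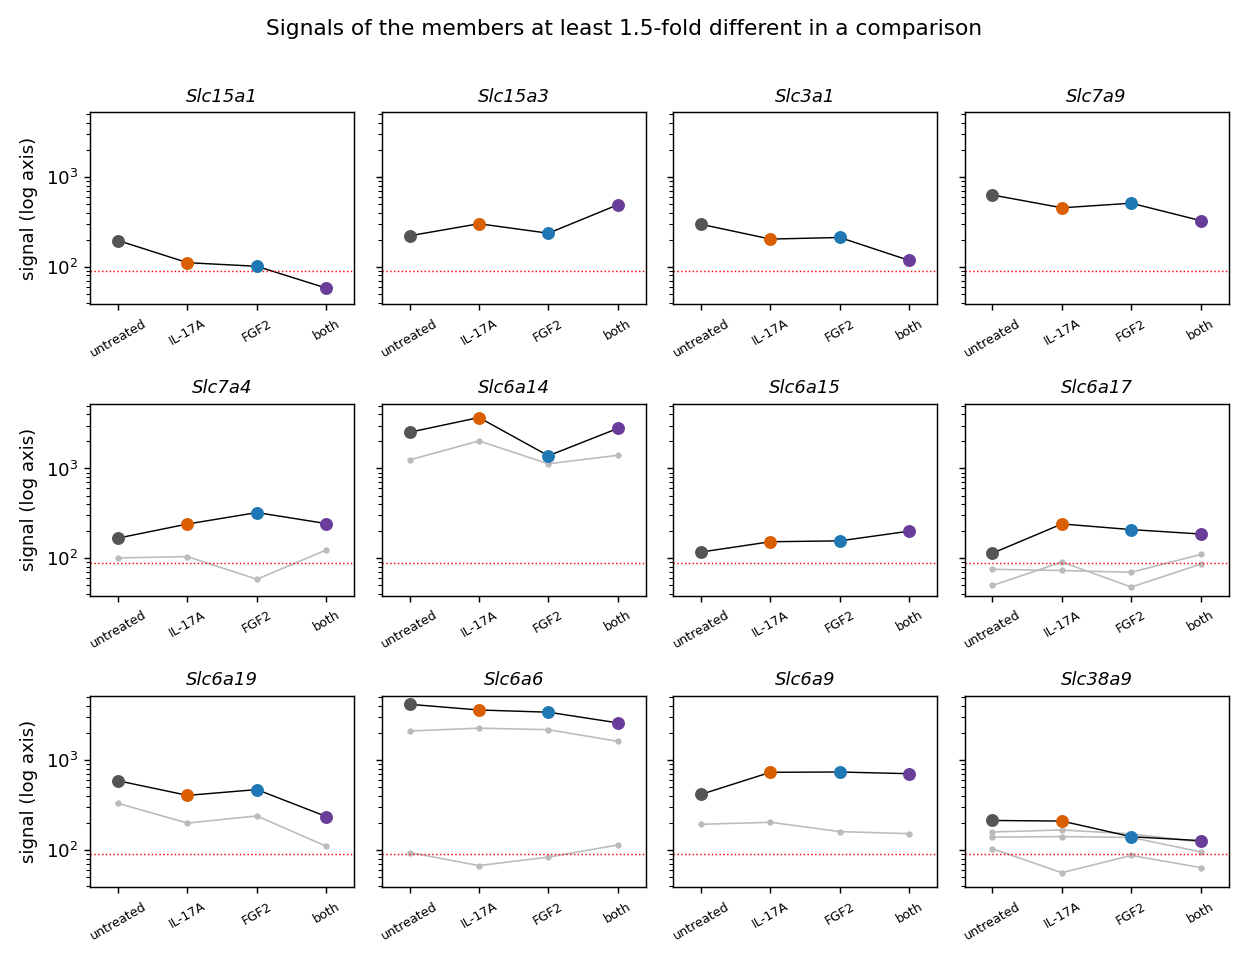
Signals on a log axis in untreated, IL-17A, FGF2 and combined cells for the 12 members at least 1.5-fold different in a comparison; coloured points are the brightest probe set, grey lines the other probe sets over the floor on some array, and the dotted line the floor of 89.8. Slc15a1, Slc3a1, Slc7a9 and Slc6a19 step down to the combined array, while Slc6a14 is highest with IL-17A and lowest with FGF2.

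In their brightest probe sets, the carriers that feed growing cells differed little. Slc3a2, the heavy chain shared by several light chains, had signals of 4545, 4652, 5323 and 5283. Its partner Slc7a5, the carrier of large neutral amino acids, had 2012, 2005, 2067 and 2089. All 4 arrays lay within 1.04-fold of the untreated level for Slc7a5, and within 1.17-fold for Slc3a2, whose FGF2-treated arrays were the higher ones. Slc7a6, another light chain of Slc3a2, lay between 1032 and 1197. Slc1a5, a sodium-dependent exchanger of glutamine and other neutral amino acids, had 528, 493, 635 and 566, and its relative Slc1a4 lay between 396 and 471. The next probe set of Slc1a4 read 372, 348, 316 and 272. Its dimmest read 158, 181, 235 and 136, 1.49-fold higher with FGF2 and 1.73-fold lower for the combination against FGF2.

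Among basolateral carriers, Slc7a7, the light chain that passes cationic amino acids to the blood, had signals of 1207, 942, 1170 and 925, so both arrays with IL-17A were lower, by 1.28-fold against untreated and 1.26-fold against FGF2. Its second probe set was below untreated on the combined array too (−0.51). Slc7a8, a basolateral light chain for neutral amino acids, was over the floor on the combined array alone (108). Slc43a2, a facilitated carrier of branched-chain amino acids, lay between 229 and 266. Slc16a10, the basolateral carrier of aromatic amino acids and no member, had 224, 156, 202 and 127, with the combination 1.76-fold below untreated.

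Among the SLC38 family of sodium-coupled neutral carriers, Slc38a2, which is induced when amino acids run short, was the brightest, at 8001, 8778, 8667 and 9099, and it was 1.14-fold above untreated with both factors. Slc38a1 lay between 863 and 1047 and Slc38a10 between 2502 and 2645. The next brightest probe sets of Slc38a10 were at most 1.26-fold different in a comparison, but dimmer ones differed more. A dim probe set at 179, 174, 245 and 97.2 was 1.85-fold lower with both against untreated and 2.52-fold against FGF2. Another was 1.78-fold lower with IL-17A, and a further one at least 1.65-fold lower with both. Slc38a9, the lysosomal arginine sensor upstream of mTORC1, had 212, 209, 140 and 127. Both arrays with FGF2 were lower, by 1.52-fold without IL-17A and 1.65-fold with it. With FGF2 alone the brightest probe set had a log2 ratio of −0.60. Of its 3 other probe sets over the floor on some array, those over it on every array had −0.07 and −0.01. These are smaller than the yardstick SD of 0.29. The remaining probe set was over the floor in untreated cells alone, so its −0.20 is set by the floor. Slc38a6 had 377 in untreated cells and 258 to 276 on the stimulated arrays, and Slc38a4 196 and 243 to 262. Slc38a7, a lysosomal exporter of glutamine, lay between 288 and 360.

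The other SLC6 members carry osmolytes, creatine and transmitters. Slc6a6, the taurine transporter, had signals of 4170, 3604, 3407 and 2591, with the combination lowest and 1.61-fold below untreated. Its next probe set had 2105, 2263, 2176 and 1616, so the combined array was lowest there too. A dim probe set of Slc6a6, over the floor on 2 arrays, had a log2 ratio of 0.28 for the combination. Slc6a8, the creatine transporter, lay between 2018 and 2247. Slc6a2, the noradrenaline transporter, had 131 with IL-17A and 98.5 with both, was under the floor on the other arrays, and was at least 1.46-fold higher with IL-17A.

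Slc6a9, a glycine transporter, had 415 in untreated cells and 730, 736 and 704 with IL-17A, FGF2 and both, so all 3 stimulated arrays were about equally high, 1.70- to 1.77-fold over untreated. Its other probe set did not show this, with 193, 203, 160 and 151, and a log2 ratio of −0.35 for the combination. Slc6a17, a vesicular carrier of neutral amino acids in neurons, had 114, 241, 209 and 186, and was 2.12-fold above untreated with IL-17A, the only 2-fold value with that factor alone. Its other probe sets were each over the floor on a single array. Slc6a17 was also the 1 measured member whose interaction (−1.24) lay beyond the 99th percentile for its brightness (1.17). Slc6a15, a related carrier of branched-chain amino acids and proline, had 118, 153, 156 and 201, with the combination 1.71-fold above untreated. Glial and neuronal markers, with 5 of 6 represented and none at 0, summed to 2031, 2164, 1658 and 2080, and their part in these values was not tested.

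**Figure D4:**
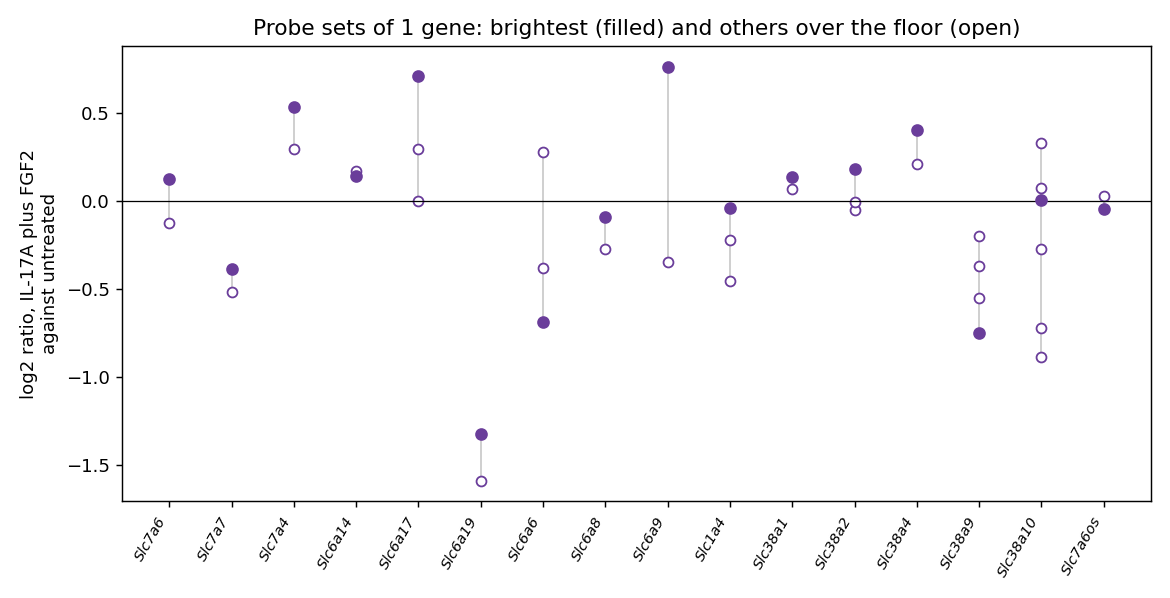
Log2 ratio of IL-17A plus FGF2 against untreated for the probe sets of the 16 measured members with at least 2 probe sets over the floor on some array; filled points are the brightest probe set and open points the others. The probe sets of Slc6a19 lie together at −1.32 and −1.59, while those of Slc6a9 lie on either side of 0.

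Of the cationic SLC7 genes, Slc7a4, whose transport function is unsettled, had 168, 241, 323 and 244, and was 1.93-fold above untreated with FGF2. Another of its probe sets was lowest with FGF2 (58.5, under the floor). Slc7a3, a cationic amino acid transporter, lay between 312 and 337 and Slc7a14, a lysosomal relative, between 179 and 262. In the SLC36 family of proton-coupled carriers, Slc36a1 lay between 480 and 571 and Slc36a4 was highest with both factors (763, 803, 834 and 981). In the SLC43 family, Slc43a3, a carrier of purine nucleobases, had 1334, 1218, 907 and 982 and was 1.47-fold lower with FGF2, and Slc43a1 had 123 in untreated cells and 92.1 to 99.4 on the others. Slc7a6os, the measured opposite-strand member, lay between 336 and 397.

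The 26 members under the floor had signals of 1.17 to 89.4. They include carriers of nerve and kidney (Slc6a3, Slc6a4, Slc6a5, Slc6a7, Slc6a11, Slc6a12, Slc6a13 and Slc6a18, with Slc1a2, Slc1a3, Slc1a6 and Slc7a10). Slc15a5, Slc6a16, Slc6a21, Slc36a2, Slc38a5, Slc7a12, Slc7a13 and Slc7a15 were also under the floor on all arrays, as were Slc36a1os and Slc6a19os. Carriers known from the small intestine were among them as well: Slc1a1, the apical glutamate carrier (53.4, 88.9, 55.8 and 63.9), and Slc6a20a and Slc6a20b, for proline and related imino acids (27.3 to 40.1, and 30.1 to 51.7). The members nearest to the floor were Slc38a3 below it, at 89.4 in untreated cells, and Slc36a3 and Slc1a7 above it, with highest signals of 96.1 and 97.2. A signal under the floor does not show that a gene was silent.

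Each factor has 2 comparisons with no array in common, without and with the other factor. For IL-17A they are IL-17A against untreated and the combination against FGF2. In the second pair, 2 measured members were at least 2-fold higher, Slc15a3 and Slc6a14 (5.13%, beside 0.367% of all measured genes), and 0 lower (0.269%). At 1.5-fold, 2 were higher (5.13%, beside 1.83%) and 3 lower (7.69%, beside 2.06%). Slc6a19 was 1.45-fold lower in the first pair and 1.99-fold in the second, Slc3a1 1.46-fold and 1.80-fold, and Slc7a9 1.39-fold and 1.56-fold. Slc6a14 was 1.46-fold and 2.02-fold higher. For Slc15a1, at log2 ratios of −0.82 and −0.17, the second pair is limited by the floor. For IL-17A, 0 of 39 members were 1.5-fold or more higher in both pairs (0.579% of all measured genes) and 0 lower in both (0.522%), shares at which under 1 member would be found.

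For FGF2, the second pair is the combination against IL-17A. There 0 members were 2-fold higher (0.547% of all measured genes) and 0 lower (0.857%), and at 1.5-fold 1 was higher (2.56%, beside 2.8%) and 3 lower (7.69%, beside 4.09%). In both pairs, 0 members were at least 1.5-fold higher (1.09% of all measured genes) and 1, Slc38a9, lower (2.56%, beside 2.02%). The mean over all its probe sets, some of them under the floor on every array, cannot show whether this held. That mean was under the floor on every stimulated array, so its log2 ratios of −0.11 and 0.00 are set by the floor. The 2 other probe sets over the floor on every array had −0.07 and −0.01 in the first pair, and −0.44 and −0.57 in the second. In log2 ratios, Slc3a1 had −0.49 and −0.79, Slc6a19 −0.33 and −0.78, and Slc6a14 −0.87 and −0.40, each below 0 in both. Slc6a9 and Slc7a4 were 0.83 and 0.95 in the first pair but −0.05 and 0.02 in the second.

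**Figure D5:**
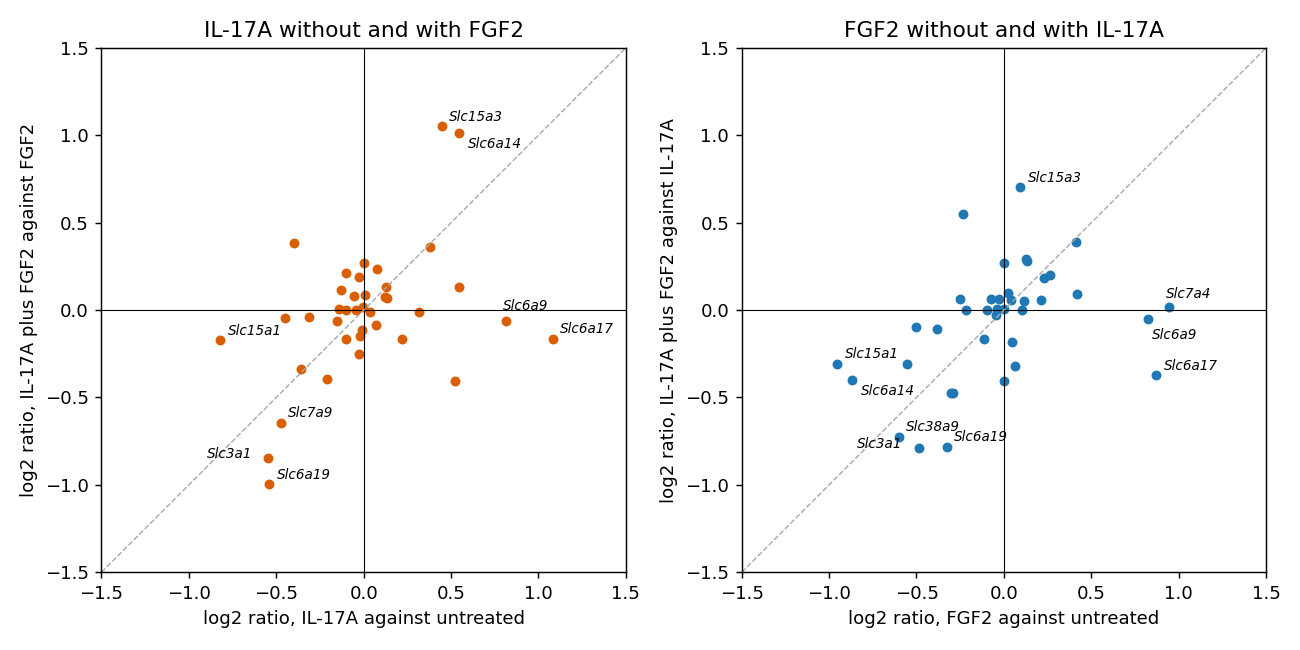
Log2 ratios of the 39 measured members for IL-17A (left) and FGF2 (right), without the other factor on the horizontal axis and with it on the vertical axis; the dashed line marks equal values, and members at least 1.5-fold different on either axis are named. Slc6a14 is above 0 on both axes for IL-17A and below 0 on both for FGF2, and Slc3a1, Slc7a9 and Slc6a19 are below 0 on both axes of the IL-17A panel.

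In 9 measured members (23.1%) the untreated array was highest, each single factor lower and the combination lowest, which was so in 15.1% of all measured genes. They were Slc15a1, Slc3a1, Slc7a9, Slc6a19, Slc7a7, Slc6a6, Slc38a6, Slc38a9 and Slc43a1. The reverse order was found in 6 members (15.4%, beside 12.6%), Slc15a2, Slc15a3, Slc36a4, Slc38a2, Slc6a15 and Slc7a3. These orders use signals without the floor, and for Slc15a2 the untreated (70.0) and FGF2 (72.5) arrays, both under it, have no reliable order. They also set no least size for a step, and some steps were smaller than the yardstick SD. Slc7a3 had log2 ratios to untreated of 0.01, 0.02 and 0.11, beside an SD of 0.20. Slc38a9 had −0.02 with IL-17A, beside 0.29.

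Other genes of protein digestion and amino acid use were taken from fixed lists. Of 7 brush border peptidases, which release the peptides and amino acids that these carriers take up, 6 were measured. With both factors 2 of these were at least 1.5-fold lower (33.3%, beside 6.52% of all measured genes) and 0 higher (3.34%). Their median log2 ratio was −0.43. Anpep (57.5), Dpp4 (48.2) and Xpnpep2 (33.2) were under the floor on the combined array, so their folds there are lower bounds. Xpnpep2 was over the floor in untreated cells alone (90.9). Mep1b, a meprin subunit, had signals of 947, 882, 519 and 387, 2.45-fold lower with both, and Dpp4, a dipeptidyl peptidase, had 165, 88.2, 95.8 and 48.2. Enpep, an aminopeptidase, lay between 700 and 826. Of the genes of the amino acid response, 13 of 13 were measured, with 0 at least 1.5-fold different in any comparison (15.9% of all measured genes). Their medians were −0.03 with IL-17A, 0.11 with FGF2 and 0.15 with both. Asns, the asparagine synthetase, had 6951, 7300, 8114 and 7705, and Atf4, the transcription factor of this response, 8354, 8670, 9871 and 9773. Of the aminoacyl-tRNA synthetases, 11 were measured, with 0 at least 1.5-fold different (15.9%) and a median of 0.05 with both. Of the genes of amino acid sensing at the lysosome, 10 of 10 were measured. Again 0 were at least 1.5-fold different (15.9%), and the median was 0.02 with both. Most genes of the response, synthetase and sensing lists had a mean log2 signal over 10, where the yardstick SD is 0.13 or less. Most measured members lay under 10, so the 0 counts do not compare directly with theirs.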

How the data were processed

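RNA of 4 groups was measured on 1 array each. The authors deposited log2 signals, made with MAS5 per the submitters' processing notes (its version: not given in the sources used here). Unlogged, every array had the same 2% trimmed mean, 500.0. MAS5 subtracts mismatch signals, which makes dim values noisy, and detection calls were not analysed here. Symbols came from the platform annotation: 34945 probe sets had 1, 932 several and 9160 none, after 64 control probe sets were left out. Here, ratios, counts at 2-fold and 1.5-fold and medians were computed for each gene as defined above with Python 3.11.15, numpy 2.4.6 and pandas 2.3.3, and the code was tested on simulated data. With 1 array per group no test was made, and the number of arrays limits the precision. Any member could be named, with all 4 signals at 1.5-fold or more, and so could genes of fixed pathway and cell type lists. Members, lists and thresholds were chosen with earlier results of these data known. Alternatives were quantile normalization, median centring, a floor at the 25th or 75th percentile, no floor, signals plus the floor value, probe sets of a gene averaged, leaving out probe sets that can detect related transcripts, a 1.5-fold threshold and, chosen after seeing the data, the omission of the 3 os symbols. Promoters are RefSeq's, 250 bases before the start, and the 50 bases after it were left out.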

Additional observations from a re-analysis of the deposited data

Results flagged for a closer look

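For 3 members a factor's log2 ratio had opposite signs without and with the other factor, each beyond the yardstick SD of 0.29. The differences were not tested, with 1 array per group. The share of all measured genes with such a change of sign was not counted, so the count says nothing particular to the members. The interactions of Slc7a14 (0.78) and Slc7a4 (−0.93) lay within the 99th percentile of 1.17 for their brightness. Slc7a14 was at −0.40 for IL-17A without FGF2 and 0.38 with it. Slc7a4 was at 0.52 for IL-17A without FGF2 and −0.41 with it. Another Slc7a4 probe set did not change sign, at 0.05 without FGF2 and at least 0.46 with it. Slc6a17 was at 0.87 for FGF2 without IL-17A and −0.37 with it. All 3 genes are dim, with signals of 114 to 323 in their brightest probe sets, and the brightest probe set gave these values.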

How the results depend on the processing

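No paired analysis was possible because each group has a single array, and for the same reason no array could be left out. Under quantile normalization, median centring, no floor, and without the os symbols or the probe sets prone to detect related transcripts, each count of members at 2-fold stayed within 1.5 times, and under every alternative each median stayed within 0.1. With the floor at the 75th percentile (signal 465), 20 members were measured, 0 were 2-fold higher with IL-17A, 0 higher and 0 lower with both, and 1 higher for the combination against FGF2. Adding the floor value to every signal instead gave 0, 0, 1 and 0 for these counts. A floor at the 25th percentile (28.2) gave 1 member 2-fold lower with IL-17A, 1 lower with FGF2 and 1 higher for the combination against IL-17A. The lower member was Slc6a19os, no transporter, with either factor, and the higher one was Slc6a7. Slc6a19os and Slc6a7 are under the main floor on all arrays. With the mean of all probe sets, 0 were higher with IL-17A, 1 higher with FGF2, and 1 higher and 1 lower for the combination against FGF2. The 1 higher with FGF2 was Slc1a5, whose mean takes in a probe set under the floor on all arrays. Its brightest probe set was 1.20-fold higher. At 1.5-fold, higher and lower counts were 2 and 1 with IL-17A, 3 and 3 with FGF2, 4 and 6 with both, 1 and 3 for the combination against IL-17A and 2 and 3 against FGF2. Of 224 single values (28 ratios of at least 1.5-fold under 8 alternatives), 178 moved by less than the yardstick SD, 46 by more, and 0 changed sign. The floor at the 75th percentile moved 22 of these, since it lies above most of the dim signals, Slc15a1 and Slc3a1 included (log2 ratio 0.00 with both factors). Without a floor Slc15a1 was at −1.76 with both. With the mean of all probe sets, Slc6a9 was at 0.21 with both and Slc6a17 at 0.38 or more with IL-17A. Slc6a14 was then at 0.66 for the combination against FGF2. Slc38a9 was at −0.11 with FGF2 and 0.00 for the combination against IL-17A. Its mean was under the floor on every stimulated array, so these values are set by the floor.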
